A study of Mus musculus with 9 samples.

Results

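The chitinases and chitinase-like proteins of the mouse lung were followed through 5 genes, taken by name from the 34638 genes of the deposited expression table: the chitinases Chia1 and Chit1, and the chitinase-like genes Chil1, Chil3 and Chil4. RNA was sequenced from the whole lungs of 9 wild-type C57BL/6 mice, 3 in each group. Mice of the PBS group received phosphate buffered saline, and those of the IL-33 group received 4 doses of 0.5 µg recombinant mouse IL-33 into the trachea, 1 on each day from day 0 to day 3. Mice of the IL-33+LM8 group received the same IL-33 after an intraperitoneal injection of LM8, an inhibitor of the adaptor protein MyD88, at 10 mg/kg. The study's methods describe the PBS and IL-33 mice as females of 6 to 8 weeks, with lungs taken on day 4, and do not describe the IL-33+LM8 mice. No group received LM8 without IL-33, so a change under LM8 in lungs not given IL-33 was not analysed here.

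Chitinases cut chitin, the polymer of N-acetylglucosamine in fungal walls, mites, insects and helminths, and mammals make them although they make no chitin. Chia1 encodes acidic mammalian chitinase (AMCase), which airway epithelium and macrophages secrete, and Chit1 encodes chitotriosidase, a macrophage enzyme. The chitinase-like proteins share the same fold but have lost the cutting activity. Chil1 encodes BRP-39, the mouse counterpart of human YKL-40, while Chil3 encodes Ym1 and Chil4 encodes Ym2, proteins of macrophages and, for Ym2, of airway epithelium that can crystallise in allergic lungs. IL-33 signals through the receptor ST2 and MyD88, and one of its known effects is the release of IL-13 by lymphoid cells. IL-13 acts through STAT6 and is a known inducer of several of these genes.

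The difference between the enzymes and their relatives can be read in the stretch of the coding sequence for the active site, whose last codon is that of the catalytic glutamate in an active chitinase. Each stretch below holds 27 bases of the longest reading frame among the GENCODE M21 transcripts of the gene, and capitals mark the last codon.
Chia1: tttgatggactggacctggactggGAA
Chit1: tttgatggccttgaccttgactggGAG
Chil1: tttgatgggctggatctcgcctggCTC
Chil3: tttgatggcctcaacctggactggCAG
Chil4: tttgatggcctcaacctggactggCAG
The stretch covers bases 463 to 489 of the coding sequence of Chia1, 421 to 447 of Chil1, and 394 to 420 of Chit1, Chil3 and Chil4. The last codon encodes glutamate in Chia1 and Chit1 and another residue in Chil1, Chil3 and Chil4. Chil3 and Chil4 carry the same 27 bases.

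Chil3 and Chil4 are near copies of each other. Their coding sequences match at 1141 of 1197 aligned bases, or 95.3%, whereas that of Chil3 matches Chia1 at 76.0% and Chil1 at 63.8%. Of all stretches of 31 bases in the Chil3 transcript, 31.1% also occur in Chil4 transcripts. The longest run that the main transcripts of the pair share is 136 bases, which is shorter than the reads of 150 bases, so no stretch of read length was identical. Chia1 shares 10 of its 1651 such stretches with Chil3 and 14 with Chil4, and Chil1 and Chit1 share none with the other members. How reads that match both Chil3 and Chil4 were divided is not given in the sources used here, and the values of this pair carry that uncertainty.

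The genes lie in 2 clusters. In the table's coordinates, Chit1 (chromosome 1, 134038980 to 134079278, + strand) and Chil1 (chromosome 1, 134109914 to 134117919, + strand) are neighbours, and no other table gene lies wholly between their outer ends. Chia1 (chromosome 3, 106020545 to 106039436, + strand), Chil3 (chromosome 3, 106054870 to 106074880, - strand) and Chil4 (chromosome 3, 106108806 to 106126823, - strand) span 106 kb, inside a cluster of 432 kb from Ovgp1 to Chil6. The submitters' processing notes name the build mm10, but the start of Chil3 lies 92684 bases lower in the table than in GRCm38, so the table's positions were kept apart from those of the reference.

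The promoters are shown as a description of the sequences. Under LM8 against IL-33 alone, Chil3 and Chil4 were called lower and Chia1 and Chil1 were not. A part of the promoters in that difference was not tested. RefSeq promoter sequences (GRCm38.p6) were found for 5 of 5 members, and the 250 bases before the annotated start are printed for the 4 members with measurable RNA. Capitals mark matches to the motifs named after them.
Chil3, chr3:106167565-106167814, - strand: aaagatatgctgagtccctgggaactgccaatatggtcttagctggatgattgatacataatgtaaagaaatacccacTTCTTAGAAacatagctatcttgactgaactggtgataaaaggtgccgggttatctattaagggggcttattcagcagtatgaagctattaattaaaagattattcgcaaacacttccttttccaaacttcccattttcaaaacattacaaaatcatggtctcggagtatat
Chil4, chr3:106219480-106219729, - strand: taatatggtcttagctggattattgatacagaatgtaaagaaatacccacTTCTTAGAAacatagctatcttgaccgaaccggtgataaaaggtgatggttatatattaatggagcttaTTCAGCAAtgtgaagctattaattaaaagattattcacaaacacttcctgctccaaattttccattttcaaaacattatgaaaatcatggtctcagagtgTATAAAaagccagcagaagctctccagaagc
Chia1, chr3:106113132-106113381, + strand: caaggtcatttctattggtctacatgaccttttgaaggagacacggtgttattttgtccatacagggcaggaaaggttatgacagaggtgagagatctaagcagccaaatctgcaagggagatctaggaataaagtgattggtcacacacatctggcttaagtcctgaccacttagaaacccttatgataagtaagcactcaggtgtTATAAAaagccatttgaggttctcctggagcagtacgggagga
Chil1, chr1:134181906-134182155, + strand: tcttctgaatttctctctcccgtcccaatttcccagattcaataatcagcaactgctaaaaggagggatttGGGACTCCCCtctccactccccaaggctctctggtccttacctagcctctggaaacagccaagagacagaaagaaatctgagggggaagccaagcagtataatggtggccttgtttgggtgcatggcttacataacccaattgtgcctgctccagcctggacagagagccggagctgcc
The windows of Chil3 and Chil4 matched at 201 of 221 aligned bases (91.0%). Both hold TTCTTAGAA, a match to TTCNNNGAA, the STAT palindrome with 3 spacer bases, at 172 bases before the start of Chil3 and 200 before that of Chil4. That motif occurs in 8.30% of the 32851 RefSeq promoters of the same length. The same palindrome with 4 spacer bases, the form that STAT6 prefers, was in no member and in 6.95% of all promoters. A TATA box, TATAAA, was found in Chil4 at 31 bases before the start, in Chia1 at 43 and in Chil3 at 3 before the start, where it runs past the end of the printed window, against 13.6% of all promoters. In these 3 genes it opens a shared run of 12 bases, tataaaaagcca. Chil1 held a match to the NF-kB consensus (8.46% of promoters), Chil4 1 to the C/EBP type TTGCNNAA (10.8%) and Chit1 1 to the AP-1 type TGANTCA (7.81%), and no member held the PU.1 type GAGGAAGT (3.20%). Both strands of the 300 bases from 250 before to 50 after the start were searched, and a match describes letters only. The matches TTCTTAGAA and those of the other motifs did not overlap in these windows.

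Levels are given in FPKM as deposited, fragments scaled to transcript length and library size. Between genes, counts and FPKM did not keep 1 relation. The transcripts of Chil3 and Chil4 each hold 1509 stretches of 31 bases. Yet IL-33 mouse 1 had 485692 counts at 4354 FPKM for Chil3 and 101982 counts at 530 FPKM for Chil4. Levels, ratios and shares between members are therefore those of the deposited FPKM only. A member was tested where its mean over the 9 mice was at least 0.5 FPKM, and it was called higher or lower where edgeR's quasi-likelihood test gave a Benjamini-Hochberg adjusted p under 0.05 over all genes tested and the log2 fold change reached 1 in either direction. Chil1, Chil3, Chil4 and Chia1 passed that filter, all of them already with the PBS mean, and Chit1 did not. The 9 libraries held between 53877663 and 90607218 counts, the deepest being IL-33+LM8 mouse 3. The lung marker Sftpc, which encodes surfactant protein C, averaged 11030 FPKM in PBS, 4993 in IL-33 and 9203 in IL-33+LM8 mice. In bulk lung, more cells of a type and more RNA per cell cannot be told apart.

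In lungs given PBS, Chil3 and Chil1 were the most abundant members and stood at one level in FPKM. Their counts differed, at 20548 to 24229 for Chil3 and 35390 to 42367 for Chil1. Chil3 measured 193, 224 and 193 FPKM in the 3 PBS mice, and Chil1 measured 194, 214 and 197 FPKM, so their ranges overlapped. They ranked 134 and 135 of all genes by mean FPKM. Chia1 followed at 27.8, 25.9 and 27.7 FPKM, rank 1604. Chil4 was scarce, at 1.89, 1.89 and 0.327 FPKM from 349, 345 and 72 counts, and its mouse 3 stood apart from the other two. Chit1 had 0, 7 and 4 counts, which at most reaches 0.0512 FPKM.

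IL-33 raised the 4 measurable members in every mouse and changed their order. Compared with PBS mice, 4 of 4 tested members were called higher, where 10.8% of all 16831 genes tested were called higher, 6.24% lower and 17.0% in either direction. FPKM ranges of the groups did not overlap for any of the 4, as for 63.4% of all genes tested.

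Chia1 measured 573, 519 and 605 FPKM in the IL-33 mice. Its mean rose from 27.1 ± 1.06 (SD, n = 3) in PBS mice to 566 ± 43.4 FPKM (SD, n = 3), a 20.9-fold difference of means. The log2 fold change was 4.38 with a standard error of 0.081 (edgeR, adjusted p = 3.93e-07). The lowest IL-33 mouse lay 18.7-fold above the highest PBS mouse. Chit1, the other chitinase, had 0 counts in all 3 IL-33 mice, so its RNA was at or under the floor of 3 counts per library.

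Chil3 reached 4354, 4648 and 4059 FPKM in the IL-33 mice. Its mean of 4354 ± 294 FPKM (SD, n = 3) was 21.4-fold above the PBS mean of 203 ± 17.5 FPKM (SD, n = 3), and edgeR gave a log2 fold change of 4.42 ± 0.10 (SE, adjusted p = 6.04e-07). Chil3 thereby ranked 5 of all genes by mean FPKM in IL-33 lungs. Its RNA alone made up 70.6% to 73.3% of the summed FPKM of the 5 members, against 46.2% to 48.0% in PBS mice.

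Chil4 had the largest change of the 4, from almost no RNA to the level of Chia1 in FPKM. It measured 530, 579 and 448 FPKM in the IL-33 mice, from 70989 to 102240 counts, against at most 349 counts in a PBS mouse. The log2 fold change was 8.57 with a standard error of 0.64 and a 95% interval from 7.06 to 10.1 (edgeR, adjusted p = 3.6e-05), and it ranked 12 of 16831 genes by log2 fold change. The means, 519 ± 66.4 against 1.37 ± 0.903 FPKM (SD, n = 3 each), differed 379-fold. That factor rests on few PBS counts, and single mice differed by 237-fold to 1770-fold depending on the pair taken.

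Chil1 changed least. The IL-33 mice measured 604, 595 and 639 FPKM, a mean of 613 ± 23.0 against 202 ± 11.1 FPKM (SD, n = 3 each), or 3.04-fold. The log2 fold change was 1.60 with a standard error of 0.065 (edgeR, adjusted p = 2.72e-06). Chil1, level with Chil3 in FPKM in PBS lungs, was at 12.8% to 15.7% of the Chil3 FPKM in the IL-33 mice. In those lungs the ranges of Chil1 and Chia1 overlapped, and so did those of Chia1 and Chil4, while Chil3 stood above all 3.

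**Figure D1:**
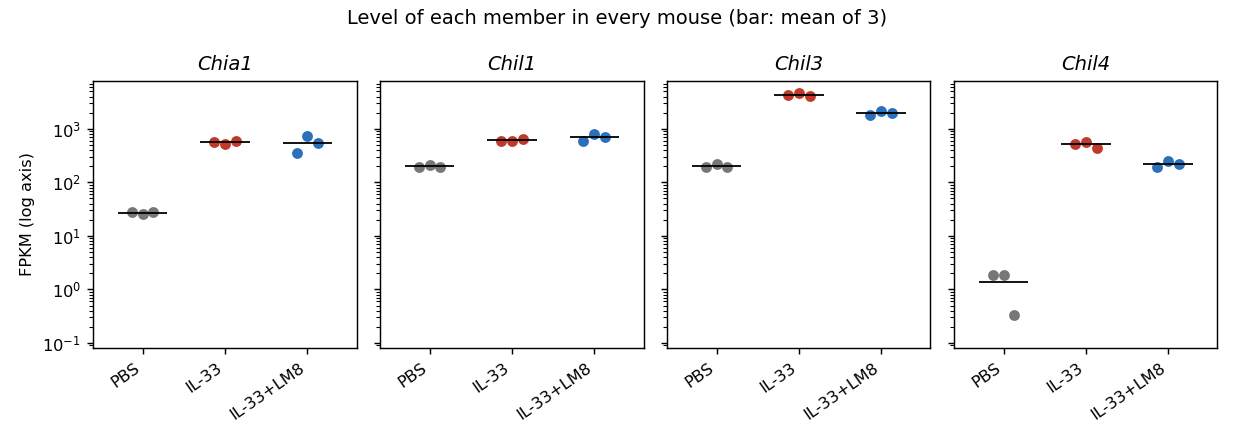
FPKM of Chia1, Chil1, Chil3 and Chil4 on a log axis, 1 point per mouse and a bar at the mean of 3, for PBS (grey), IL-33 (red) and IL-33+LM8 (blue). All IL-33 points lie above all PBS points, Chil4 climbs from at most 1.89 to at least 448 FPKM, and the blue points of Chil3 and Chil4 alone lie wholly under the red ones.

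Under LM8 the family split. Chil3 and Chil4 were lower than in mice given IL-33 alone, and Chia1 and Chil1 did not pass the test. Of 4 tested members 2 were called lower and 0 higher by edgeR, where 3.93% of the 16831 genes tested were called lower, 1.46% higher and 5.39% in either direction. FPKM ranges did not overlap for Chil3 and Chil4, as for 43.2% of all genes tested. At an unadjusted p under 0.05 no further member was lower or higher, and DESeq2 likewise called 0 members higher.

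Chil3 measured 1795, 2119 and 1940 FPKM in the IL-33+LM8 mice, all under the lowest IL-33 mouse. The mean of 1951 ± 162 FPKM (SD, n = 3) was 2.23-fold under that of IL-33 mice, and edgeR gave a log2 fold change of -1.16 ± 0.098 (SE, 95% interval -1.39 to -0.93, adjusted p = 0.000281). Its rank by mean FPKM went from 5 to 18.

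Chil4 measured 190, 250 and 223 FPKM, also all under the lowest IL-33 mouse. The mean of 221 ± 29.9 FPKM (SD, n = 3) was 2.35-fold lower, and edgeR gave a log2 fold change of -1.23 ± 0.13 (SE, 95% interval -1.53 to -0.92, adjusted p = 0.000629). Fitted with all 9 mice together, the adjusted p of Chil4 was 0.0578, which ends the call, at a log2 fold change of -1.22.

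Chia1 was spread widely in the IL-33+LM8 mice, at 357, 733 and 540 FPKM, so mouse 1 lay under and mouse 2 above every IL-33 mouse. The mean of 543 ± 188 FPKM (SD, n = 3) was close to the 566 FPKM of IL-33 mice, with a log2 fold change of -0.06 and a 95% interval from -0.60 to 0.49 (edgeR, adjusted p = 0.895). Without IL-33+LM8 mouse 1 the value was 0.18. A fall of the size seen for Chil3 lies outside that interval, and changes within it, in either direction, were not excluded.

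Chil1 measured 605, 800 and 696 FPKM, overlapping the IL-33 mice with its lowest value. The mean was 700.2 ± 97.3 FPKM (SD, n = 3), with a log2 fold change of 0.19 and a 95% interval from -0.07 to 0.45 (edgeR, adjusted p = 0.248). Over the alternatives tried the adjusted p ran from 0.047 to 0.528 and the fold change stayed under the minimum. Chit1 had 12, 0 and 4 counts in these mice, so that a level was not measurable at this depth in any group.

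**Figure D2:**
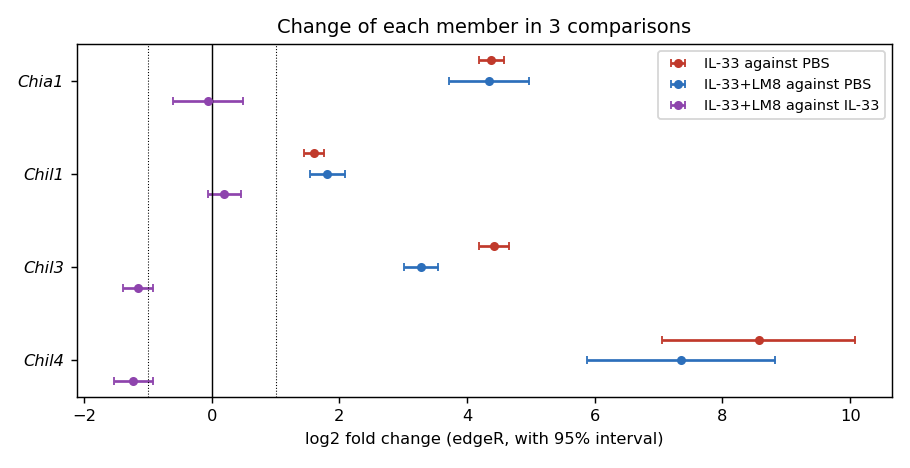
The log2 fold change of each member on the x axis with its 95% interval (edgeR), for IL-33 against PBS (red), IL-33+LM8 against PBS (blue) and IL-33+LM8 against IL-33 (purple), with dotted lines at the minimum of 1 in either direction. The purple intervals of Chia1 and Chil1 include 0, and those of Chil3 and Chil4 lie around -1.16 and -1.23.

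Against PBS, the IL-33+LM8 mice still held 4 of 4 tested members higher, where 5.87% of 16829 genes were called higher, 1.46% lower and 7.33% in either direction. Their FPKM ranges lay wholly above those of PBS mice, and ranges did not overlap for 47.3% of all genes tested. Their log2 fold changes were 4.34 for Chia1 (adjusted p = 8.45e-05), 1.81 for Chil1 (0.000102), 3.28 for Chil3 (9.34e-06) and 7.35 for Chil4 (0.000291, all edgeR). Chil3 thus stayed 9.59-fold and Chil4 161-fold above the PBS mean. This comparison and the other two share mice, so the values stand side by side and are not independent.

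The rise over PBS that was left under LM8 set the members apart on a linear scale. For Chil3 the IL-33+LM8 mice held 38.4%, 46.2% and 41.8% of the mean rise measured with IL-33 alone, and for Chil4 they held 36.5%, 48.0% and 42.8%. In every mouse the paired values of Chil3 and Chil4 were within a few percentage points of each other. For Chil1 the mice held 98.2%, 146% and 120.3%, and for Chia1 61.3%, 131% and 95.2%. The order of the mice was the same in the 4 members, with mouse 1 lowest and mouse 2 highest.

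**Figure D3:**
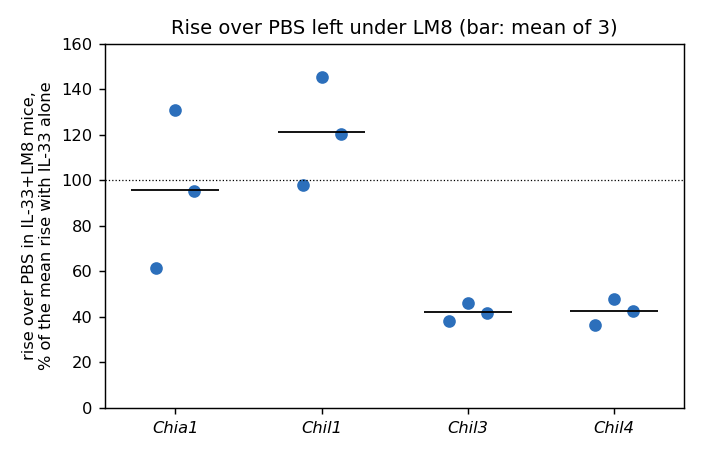
For each member, the rise over the PBS mean in each IL-33+LM8 mouse as a percentage of the mean rise in IL-33 mice, with a bar at the mean of 3 and a dotted line at 100. Chil3 and Chil4 lie between 36.5% and 48.0%, and Chia1 and Chil1 between 61.3% and 146%.

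To ask whether members differed from each other, the FPKM ratio of each pair was taken within each mouse and compared between groups by a two-sided exact permutation test, 18 tests in all. With 3 mice against 3 the smallest p is 0.1, so no pair can pass 0.05. Chil3 was 8.02 to 9.06 times Chil4 in the IL-33 mice and 8.48 to 9.43 times in the IL-33+LM8 mice, ranges that overlap (log2 difference 0.07, exact permutation p = 0.4, adjusted 0.424). In PBS mice the factor was 102 to 591. Chil3 was 6.96 to 8.64 times Chia1 in PBS mice and 6.71 to 8.95 times in IL-33 mice, again overlapping (log2 difference 0.04, exact permutation p = 0.9). In IL-33+LM8 mice that factor was 2.89 to 5.02, under both other groups without overlap (log2 difference -1.04 from IL-33 mice, exact permutation p = 0.1, adjusted 0.12). Chil1 came to 33.7% to 37.7% of Chil3 in the IL-33+LM8 mice, between the IL-33 and PBS ranges and overlapping neither (log2 difference 1.34 from IL-33 mice, exact permutation p = 0.1, adjusted 0.12).

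The family's RNA as a whole therefore changed in amount and in make-up. Its 5 members summed to 417 to 466 FPKM in PBS mice, 5750 to 6341 in IL-33 mice and 2948 to 3902 in IL-33+LM8 mice. They took 0.0957% to 0.107% of all counts in PBS mice, 1.13% to 1.24% in IL-33 mice and 0.610% to 0.812% in IL-33+LM8 mice. Chia1, the one measurable enzyme, made up 5.56% to 6.66% of the summed FPKM in PBS mice, 8.19% to 10.5% with IL-33 and 12.1% to 18.8% with IL-33 and LM8. The share of Chil1 was 46.0% to 47.1%, 9.38% to 11.1% and 20.5% in the same order.

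**Figure D4:**
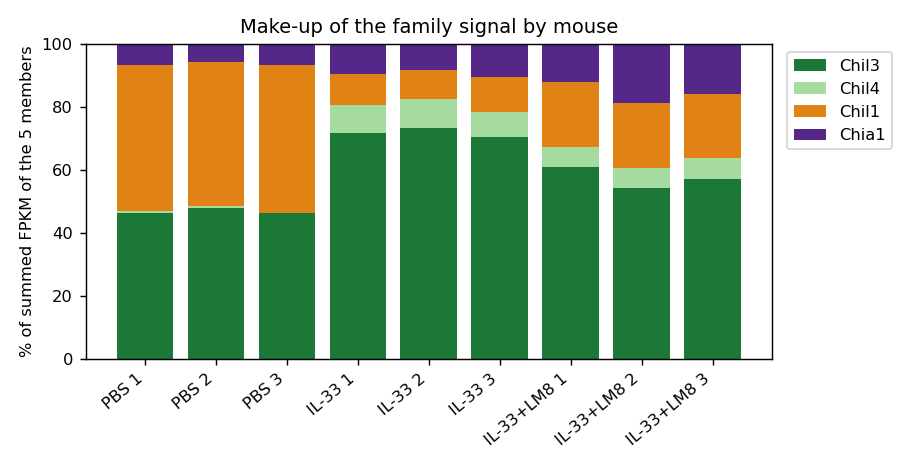
Stacked bars, 1 per mouse, of each member's percentage of the summed FPKM of the 5 members (Chit1 is at most 0.011% and cannot be seen). Chil3 and Chil1 share most of each PBS bar, Chil3 takes over 70% of each IL-33 bar, and Chil1 and Chia1 take larger parts of the IL-33+LM8 bars than of the IL-33 bars.

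Genes with the nearest profiles were sought by the root mean square difference of log2(FPKM + 1), each gene centred on its mean over the 9 mice. The added 1 narrows the changes of genes at low FPKM, so a near gene need not share the fold change. Col6a5, for example, averaged 0.183 FPKM in PBS and 18.1 in IL-33 mice, against 203 and 4354 for Chil3. The nearest to Chil3 were Saa3 (0.24), Col6a5 (0.28) and Ccl22 (0.28). Nearest to Chil4 were Retnla (0.40), Rnase2a (0.54) and Ccl24 (0.88), nearest to Chia1 Ccl17 (0.29), Serpina3g (0.30) and Timp1 (0.33), and nearest to Chil1 AU040972 (0.084), Gda (0.11) and Adra2a (0.13). Ccl17, which encodes a chemokine of type 2 immunity, averaged 7.70 ± 2.66, 133 ± 12.1 and 149 ± 43.8 FPKM in PBS, IL-33 and IL-33+LM8 mice (SD, n = 3 each), with a wider spread under LM8 than in the other groups, as for Chia1. Rnase2a, a ribonuclease gene, averaged 1.67 ± 1.13, 459 ± 42.0 and 103 ± 11.3 FPKM. Its IL-33+LM8 mean was a smaller part of its IL-33 mean than that of Chil4, a difference that was not tested.

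Of the 5 other relatives of the same glycoside hydrolase family, Chid1 and Ctbs were tested and neither was called in any comparison by edgeR or DESeq2 (unadjusted p under 0.05 for 1, 0 and 1 of the 2 in IL-33 against PBS, LM8 against IL-33 alone and LM8 against PBS). Chil5, Chil6 and Ovgp1 were under the FPKM minimum. Chil5, chosen for mention after its values were seen, had 3, 21 and 19 counts in PBS mice, 43, 54 and 46 in IL-33 mice and 65, 67 and 130 in IL-33+LM8 mice. In FPKM its ranges were 0.0226 to 0.208, 0.410 to 0.571 and 0.684 to 0.913 in the same order and did not overlap. The same held for 63.4% of all genes tested in IL-33 against PBS, 43.2% in LM8 against IL-33 and 47.3% in LM8 against PBS. Chil6 had at most 11 counts in any mouse. Next to Chia1, Chil3 and Chil4 in the cluster, these genes thus stayed at a mean of at most 0.761 FPKM.

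Some of the enzymes that take chitin fragments and N-acetylglucosamine further apart rose with IL-33. Of 8 tested, 3 were called higher with IL-33 and 0 lower, with a median log2 fold change of 0.77 against -0.01 over all genes. For this list and those that follow, the shares of all genes called higher and lower were 10.8% and 6.24% with IL-33. Under LM8 they were 1.46% and 3.93% against IL-33, and 5.87% and 1.46% against PBS. Gnpda1, a glucosamine-6-phosphate deaminase, had a log2 fold change of 1.46 and Hexa, a lysosomal enzyme, 1.17. Hexa, the most abundant of these 3, went from 43.3 ± 2.10 to 97.9 ± 1.62 FPKM (SD, n = 3 each). Under LM8 none of the 8 was called against IL-33, at a median of -0.49, or against PBS, by edgeR or DESeq2. An unadjusted p under 0.05 was reached by 6 of the 8 in each of these comparisons, with log2 fold changes under the minimum, such as -0.90 for Hexa against IL-33 alone. The share of all genes at that unadjusted p is not given here, so these counts are not read as a result about the list.

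Of 5 partners of BRP-39, 4 were tested and 3 were called higher with IL-33, with 1 called lower under LM8 against IL-33. Tmem219 was not called (log2 fold change 0.34 with IL-33), and Ptgdr2 was under the FPKM minimum, at 0.361 FPKM in PBS and 0.269 in IL-33 mice. Il13ra2, the decoy receptor for IL-13 that also binds BRP-39, had 0 counts in every PBS mouse and 293 to 313 in the IL-33 mice, at least 111-fold higher against a floor of 3 counts per library. In the IL-33+LM8 mice it had 93 to 379 counts. Lgals3, which encodes galectin-3, rose from 36.9 ± 2.36 to 229 ± 7.26 FPKM and was 86.7 ± 11.4 FPKM under LM8 (SD, n = 3 each, log2 fold change from IL-33 of -1.40, edgeR adjusted p = 0.000152). Cd44, the hyaluronan receptor, rose by a log2 fold change of 1.34, and its change under LM8 of -0.36 missed the minimum.

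Among receptors for chitin and fungal wall, Clec7a was the 1 of 3 tested that was called. Clec7a, which encodes the beta-glucan receptor dectin-1, went from 11.4 ± 0.788 to 142 ± 4.97 and then 36.0 ± 3.23 FPKM (SD, n = 3 each). Its log2 fold change was 3.63 with IL-33 and -1.98 under LM8 (edgeR, adjusted p = 3.93e-07 and 3.29e-05). Tlr2 and Lysmd3 were not called in any comparison. Tlr2 was under the fold minimum at a log2 fold change of 0.48 under LM8 against IL-33 (edgeR, adjusted p = 0.0152) and 0.69 against PBS (adjusted p = 0.00351), with 7.68 to 9.19 FPKM in IL-33+LM8 mice above the 5.39 to 6.79 of IL-33 mice.

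The IL-4 and IL-13 signal was tested through 11 genes, of which 3 were called higher with IL-33 and none was called under LM8 against IL-33 by edgeR or DESeq2 (unadjusted p under 0.05 for 6 of the 11 and adjusted p under 0.05 for 5, all under the fold minimum). The closing section counts all genes at an adjusted p under 0.05 with no fold minimum, and many passed. Il4 was nearest to a call, at 0.991 ± 0.201 FPKM with IL-33 and 0.502 ± 0.041 under LM8 (SD, n = 3 each), with a log2 fold change of -0.97 (edgeR, adjusted p = 0.0341). Its ranges did not overlap, as for 43.2% of all genes tested. Il13 had 0 to 4 counts in PBS mice, 181 to 204 in IL-33 mice and 79 to 261 in IL-33+LM8 mice. Its change under LM8 was -0.39 with a larger standard error of 0.43 (edgeR, adjusted p = 0.558). In FPKM, Il13 averaged 2.54 ± 0.405 with IL-33 and 1.93 ± 1.24 under LM8 (SD, n = 3 each). Socs1, a feedback inhibitor of cytokine signalling, had a log2 fold change of 3.67 with IL-33, and Il2rg, a receptor subunit, 1.19. Stat6 itself was at -0.17 with IL-33 and 0.12 under LM8, both under the minimum.

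Genes of alternatively activated macrophages, the class in which Chil3 is usually counted, were higher with IL-33 for 9 of 9 tested, at a median log2 fold change of 4.11. Under LM8 3 of 9 were called lower than with IL-33, at a median of -0.66, and 9 of 9 remained called higher than in PBS mice. The 3 were Pdcd1lg2 (-2.41), which encodes the checkpoint ligand PD-L2, Arg1 (-2.35), the arginase of these cells, and Ccl24 (-2.03), an eosinophil chemokine. Arg1 fell from 248 ± 7.88 to 48.7 ± 14.5 FPKM (SD, n = 3 each). Retnla, the most abundant of the list, averaged 10208 ± 746 FPKM with IL-33 and 7992 ± 1793 under LM8 (SD, n = 3 each, log2 difference -0.35, edgeR adjusted p = 0.171). An adjusted p under 0.05 was reached by 6 of the 9 under LM8 against IL-33 (edgeR). Beyond the 3 called, Mrc1 (-0.86), Ccl22 (-0.66) and Mgl2 (-0.33) missed the fold minimum alone. In this list too, then, some genes were called lower under LM8 and others were not. That split by call rests in part on the fold minimum.

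Marker genes of the cells that can make these proteins also moved between the groups. The 8 alveolar macrophage markers summed to 149.96 to 161 FPKM in PBS, 159 to 165 in IL-33 and 139 to 173 in IL-33+LM8 mice, overlapping throughout. Car4, the most abundant of the list, averaged 80.9, 54.5 and 67.6 FPKM in the same order. Single markers moved both ways with IL-33 (2 higher and 3 lower of 8, log2 fold changes from -1.72 to 2.19). They also did so under LM8 against IL-33 (2 higher and 2 lower of 8, from -1.84 to 1.26). The steady sum therefore does not show that these cells were steady. The 8 markers of interstitial and monocyte-derived macrophages summed to 72.4 to 84.5, 482 to 512 and 217 to 226 FPKM, with 7 of 8 higher with IL-33 and 5 of 8 lower under LM8. This is the direction of Chil3 and Chil4. The 8 eosinophil markers summed to 84.7 to 92.6, 643 to 697 and 155 to 191 FPKM, with 7 of 7 tested higher and then 7 of 7 lower. Ear2, the most abundant of the list, averaged 83.2, 553 and 145 FPKM in the same order, so these sums mainly follow Ear2. The defining marker Epx was at 0 in PBS mice.

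Neutrophil markers moved otherwise. The 8 markers of mature neutrophils summed to 28.4 to 35.03 FPKM in PBS, 194 to 218 in IL-33 and 891 to 1044 in IL-33+LM8 mice, with 8 of 8 higher with IL-33 and 6 of 8 higher again under LM8. Markers of neutrophil precursors, which are known to make Ym1, summed to 7.31 to 8.74, 49.1 to 69.1 and 64.5 to 86.8 FPKM, and the defining markers Elane and Mpo were at 0 in PBS mice, with at most 12 and 16 counts in an IL-33 mouse and 6 to 40 and 36 to 57 counts in the IL-33+LM8 mice. Of the 4 precursor markers tested, 2 were higher and 1 lower under LM8 than with IL-33 alone. The lower 1 was Ltf, the most abundant of the list over the 9 mice, at 50.4 ± 8.64 FPKM with IL-33 and 23.4 ± 7.68 under LM8 (SD, n = 3 each). The 2 higher were Ngp (log2 fold change 2.70) and Camp (2.56). Ngp went from 7.11 ± 1.16 to 46.2 ± 3.96 FPKM (SD, n = 3 each), above Ltf under LM8. Mature neutrophil markers thus moved against Chil3 and Chil4 under LM8. The 7 goblet cell markers summed to 10.4 to 29.3, 455 to 494 and 538 to 580 FPKM, with 5 of 6 tested higher with IL-33 and 1 of 6 lower under LM8. Clca1, the most abundant of the list, averaged 5.04, 410 and 481 FPKM in the same order, so these sums mainly follow Clca1. The 1 lower under LM8 was Muc5ac, a mucin gene, at 12.5 ± 1.46 FPKM with IL-33 and 6.09 ± 0.314 under LM8 (SD, n = 3 each, log2 fold change -1.04). The 6 club cell markers summed to 23808 to 26124, 8999 to 10095 and 18368 to 19663 FPKM. Red cell genes moved as well, with 5 of 5 erythroid markers lower with IL-33 and 5 of 5 higher under LM8, and their sums were 7847 to 9293, 2539 to 3188 and 10885 to 12337 FPKM. Cartilage markers were under the FPKM minimum in all 4 cases. The part of cell numbers in the changes of the 4 members was not tested.

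**Figure D5:**
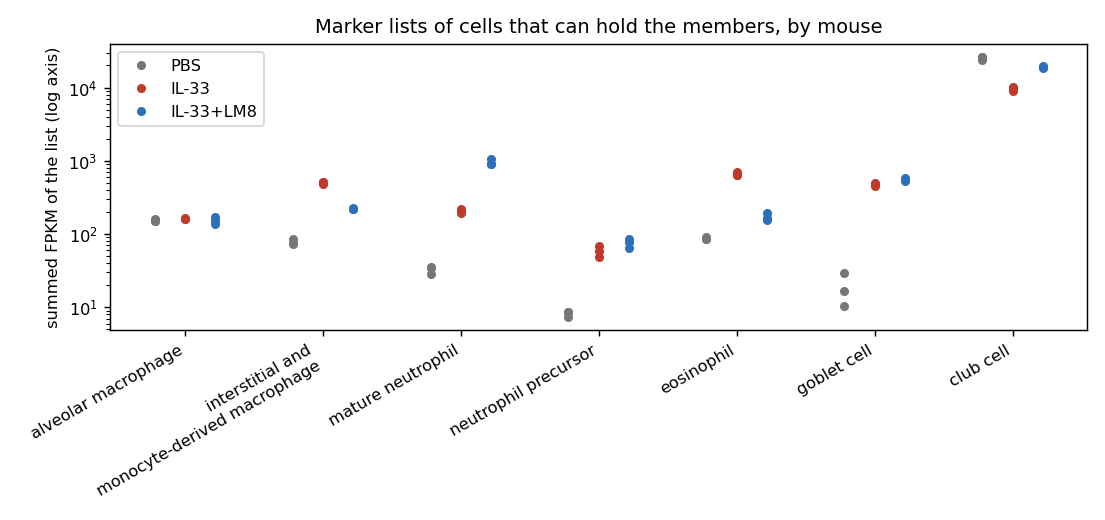
Summed FPKM of 7 marker lists on a log axis, 1 point per mouse, for PBS (grey), IL-33 (red) and IL-33+LM8 (blue). The macrophage list with monocyte-derived cells and the eosinophil list fall from red to blue, the mature neutrophil list rises further, and the alveolar macrophage list stays between 139 and 173 FPKM.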

How the data were processed

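Total RNA from fresh lung was sequenced by the authors as paired reads of 150 bases. The deposited table holds read counts per gene, not normalized, and FPKM values computed by the authors. The submitters' processing notes list HISAT2 2.0, StringTie 1.3.0, Bowtie 0.12.2 and mm10, with no roles given; strand setting and treatment of multiply mapped reads are not given in the sources used here. The study's methods describe separate mice for the PBS and IL-33 groups; for the IL-33+LM8 group only the labels number the samples, and p-values measure the spread between these samples.

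Groups came from the labels. A separate fit was made for the 6 mice of every comparison, with edgeR 4.0.16 (TMM, quasi-likelihood test) on all genes with a mean of at least 0.5 FPKM over 9 mice and a count above 0, with Benjamini-Hochberg adjustment over all of them; standard errors are the log2 fold change over the root of F. The alternatives were DESeq2 1.42.0, limma 3.58.1 on log2(FPKM + 1) or log2(FPKM + 0.1), other scaling, other filters, 1 fit of all 9 mice, the replicate block, the summed counts of Chil3 and Chil4, and each mouse left out. Simulated counts with 200 genes changed by a log2 fold change of 2 were tested first. In each comparison edgeR recovered 200, with 2 false calls in IL-33 against PBS and 0 in the others, and limma recovered 169 to 187. A change of 2 is well above the minimum of 1, so the simulation cannot show how changes near that minimum are recovered. Pair ratios were added after the data were seen. The members and gene lists were chosen with earlier results of these data known. By a fixed rule, named genes are the members, 2 to 4 examples of each pathway list (the largest called changes in either direction and the most abundant gene), the 3 nearest profiles of each member, and markers that are the most abundant of their list or defining markers at or near 0. Chid1, Ctbs, Chil5, Chil6, Ovgp1, Tmem219, Ptgdr2, Tlr2, Lysmd3, Il4, Stat6, Sftpc, Ngp, Camp, Mrc1, Mgl2 and Muc5ac were named outside it, after their values were seen. 1 item is not reported here. Libraries held 53877663 to 90607218 counts, so a floor of 3 counts is a small share of any library; floors cover counting error only, while the intervals of fold changes carry the spread between mice. No 2 libraries were copies.

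Deviations from the group means of same-numbered samples correlated at 0.31, 0.32 and 0.67 between PBS and IL-33+LM8, at -0.42, 0.28 and -0.28 between PBS and IL-33, and at -0.38, 0.22 and -0.40 between IL-33 and IL-33+LM8. Only in the first are all above 0.1. Values as high occurred without a shared number, at 0.65 for PBS 3 with IL-33 1 and 0.67 for IL-33 1 with IL-33+LM8 3. PBS 3, IL-33 1 and IL-33+LM8 3 each held the most counts of their group. The correlations therefore do not show that samples were matched by number.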

Additional observations from a re-analysis of the deposited data

How the results depend on the processing

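Of 204 log2 fold changes of the 4 tested members under an alternative, 201 kept their direction and their side of the threshold. Some of the 204 were not new values. With no fold change asked for they are those of the main fit, and with summed counts Chil4 repeats Chil3. Under LM8 against IL-33 alone, the members called went from 2 to 1 with all 9 mice in 1 fit, where Chil4 had an adjusted p of 0.0578, and to 1 with the counts of Chil3 and Chil4 summed, which leaves 1 gene fewer by construction. The change of Chia1 under LM8 against IL-33, never called, turned to 0.0053 without IL-33 mouse 3 and to 0.18 without IL-33+LM8 mouse 1, and its lowest value with a mouse left out was -0.34. With the replicate block 4, 2 and 4 members were called for IL-33 against PBS, LM8 against IL-33 alone and LM8 against PBS, so the block changed no call of a member. With a mouse left out, Chil4 in IL-33 against PBS ran from 8.09 to 8.89.

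Counts over all genes moved more. In IL-33 against PBS, 2865 genes were called, against 1176 with a mean of at least 5 FPKM, 1741 by limma at pseudocount 1 and 9193 when no fold change was asked for. For LM8 against IL-33 alone the counts were 907, 304, 439 and 4459, and for LM8 against PBS 1233, 469, 588 and 4997. Depth limits Chit1, with at most 12 counts in a library, and the PBS level of Chil4; with no FPKM minimum the adjusted p of Chit1 was 0.19, 0.251 and 0.885 in the same order of comparisons.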
